A study of Homo sapiens with 6 samples.

Results

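The 10 genes described here encode transcription factors and adaptor proteins that act in red cell precursors and their progenitors: GATA1, GATA2, KLF1, TAL1, LMO2, LDB1, LYL1, NFE2, ZFPM1 and MYB. They were given as a list of gene names, with no threshold on their values, and all 10 were found among the 19498 genes of the deposited table. RNA was measured in 6 libraries of K562, a human cell line derived from a patient with chronic myeloid leukaemia that carries features of early erythroid cells. Of these, 3 libraries were labelled WT and 3 ACK KO, ACK being a name used for the tyrosine kinase gene TNK2. No drug or other agent is named for either group. Both genotypes were cultured in RPMI supplemented with fetal bovine serum and glutamine, and polyadenylated RNA was sequenced from 500 ng of RNA per library. The labels call the libraries biological replicates but do not say whether they were separate cultures, so the p-values reflect library-to-library spread, which may be technical. The labels do not say how the knockout was made or whether it is 1 clone, so genotype and cell line cannot be told apart here.

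GATA factors, zinc finger proteins that recognise the bases GATA, work in erythroid cells in a complex with a basic helix-loop-helix dimer of TAL1 or its relative LYL1 and an E protein, bridged by the LIM-only protein LMO2 and held by LDB1, which dimerises and can join distant enhancers to promoters. GATA2 predominates in progenitors and gives way to GATA1 as red cell precursors mature, and ZFPM1, also called FOG1, is the cofactor that GATA1 needs for much of its activity. KLF1 binds CACCC boxes of globin and red cell membrane genes, NFE2 is the haematopoietic subunit of a basic leucine zipper dimer that binds globin control regions, and MYB keeps progenitors dividing and falls as they mature.

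Promoter sequences of the members on which the comparison turns, with those of KLF1 and TAL1, are printed because GATA factors and their partners are known to regulate one another. Each is the 250 bases before a RefSeq transcription start in GRCh38.p14, 5′ to 3′ on the strand of the gene, and capitals mark a match on either strand to AGATAA, with T also allowed as its first base and G as its last. LYL1 (chr19:13102859-13103108, minus strand), KLF1 (chr19:12887202-12887451, minus strand), TAL1 (chr1:47232336-47232585, minus strand), LDB1 (chr10:102115003-102115252, minus strand) and GATA1 (chrX:48786340-48786589, plus strand) read as follows.
LYL1: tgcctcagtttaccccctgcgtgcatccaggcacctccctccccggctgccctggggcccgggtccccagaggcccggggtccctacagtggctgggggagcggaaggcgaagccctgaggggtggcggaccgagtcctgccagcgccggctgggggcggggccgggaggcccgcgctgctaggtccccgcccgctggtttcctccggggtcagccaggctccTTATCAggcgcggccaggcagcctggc
KLF1: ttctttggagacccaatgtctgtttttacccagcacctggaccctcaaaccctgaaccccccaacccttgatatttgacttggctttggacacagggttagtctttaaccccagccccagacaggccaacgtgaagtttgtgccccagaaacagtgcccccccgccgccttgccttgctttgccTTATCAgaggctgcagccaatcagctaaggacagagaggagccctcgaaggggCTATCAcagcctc
TAL1: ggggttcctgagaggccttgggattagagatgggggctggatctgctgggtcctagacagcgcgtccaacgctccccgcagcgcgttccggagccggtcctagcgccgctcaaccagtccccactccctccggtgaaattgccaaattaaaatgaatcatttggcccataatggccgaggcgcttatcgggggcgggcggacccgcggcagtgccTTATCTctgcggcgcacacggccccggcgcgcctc
LDB1: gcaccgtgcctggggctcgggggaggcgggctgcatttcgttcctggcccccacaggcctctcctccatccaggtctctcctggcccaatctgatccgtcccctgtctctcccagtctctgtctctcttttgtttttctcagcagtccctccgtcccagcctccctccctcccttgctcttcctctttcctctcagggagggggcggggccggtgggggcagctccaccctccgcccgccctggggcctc
GATA1: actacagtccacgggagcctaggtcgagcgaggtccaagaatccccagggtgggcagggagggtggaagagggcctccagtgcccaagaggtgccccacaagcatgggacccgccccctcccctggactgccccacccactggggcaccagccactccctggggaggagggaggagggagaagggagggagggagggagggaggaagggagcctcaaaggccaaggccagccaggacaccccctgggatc

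The RefSeq table matched 8 of the 10 members with 10 promoter windows, and LMO2 and NFE2 were not among them. A GATA match lay in 3 of these 10 windows: in KLF1 at positions -66 and -13 from the start, in LYL1 at -27 and in the TAL1 window printed above at -35. The windows of GATA2, MYB and ZFPM1 and another TAL1 window held no GATA match and are not printed. Of all 35116 promoter windows of the same length, 22.3% held one. CACCC, on either strand, was found in 7 of the 10 windows and in 54.7% of all windows. CANNTG, the E-box letters that basic helix-loop-helix dimers such as TAL1 with an E protein bind, was found in 3 of the 10 and in 61.8% of all. These are matches of letters and say nothing of occupancy in these cells. The LDB1 window lies inside the gene as annotated (chr10:102107560-102120453), so the sequence before its annotated start was not searched.

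Values are normalised counts, read counts that the authors scaled between libraries, and differences are KO-labelled minus WT on the log2(value + 1) scale from a limma fit over the 16658 genes with a value of at least 10 in 3 of the 6 libraries. A gene was called when its p-value, adjusted by the Benjamini-Hochberg method over all 16658, was under 0.05. Library totals were 46.7 M to 53.3 M for WT and 43.5 M to 49.5 M under the KO label. TNK2 mRNA did not check the labels: its values were 829.7, 613 and 642 in WT, against 741, 506 and 598 under the KO label, a difference of -0.18 (SE 0.21, limma adjusted p = 0.681). The replicate 1 libraries of both genotypes stood apart from replicates 2 and 3. Libraries with the same replicate number deviated together, most clearly replicate 1. A fit blocked by replicate number is therefore given wherever it changes the call of a member or the counts of a list. Summed over the 38 measured of 39 erythroid genes, values were 174587 to 263410 in WT, against 211131 to 251290 under the KO label. AHSP, the chaperone of alpha globin, was near 0 with a highest value of 12.2 in the 6 libraries. All samples are bulk RNA, in which fewer cells of a type and less RNA per cell cannot be told apart.

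Among the 10 members, LDB1 and LYL1 fell in the KO-labelled libraries, none rose and 8 did not pass the test. Beside these 2 of 10, 10.3% of all tested genes were called, 4.96% lower and 5.37% higher. The median difference of the members was -0.22, and that of all tested genes was -0.02. GATA1, LDB1, LYL1 and MYB had all 3 KO-labelled values below all 3 WT values, as did 14.7% of all tested genes, and no member had them all above. With the replicate block, LDB1, LYL1, GATA1, MYB and ZFPM1 were called lower and GATA2 higher, which is 6 of 10 where 39.7% of all tested genes were called, 20.0% lower and 19.7% higher. With both replicate 1 libraries left out, LDB1, LYL1, GATA1 and ZFPM1 were called lower, where 28.4% of all tested genes were called and 13.8% were called lower. For 5 of the 10 members the absolute difference was under 0.31, the median of all tested genes.

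**Figure D1:**
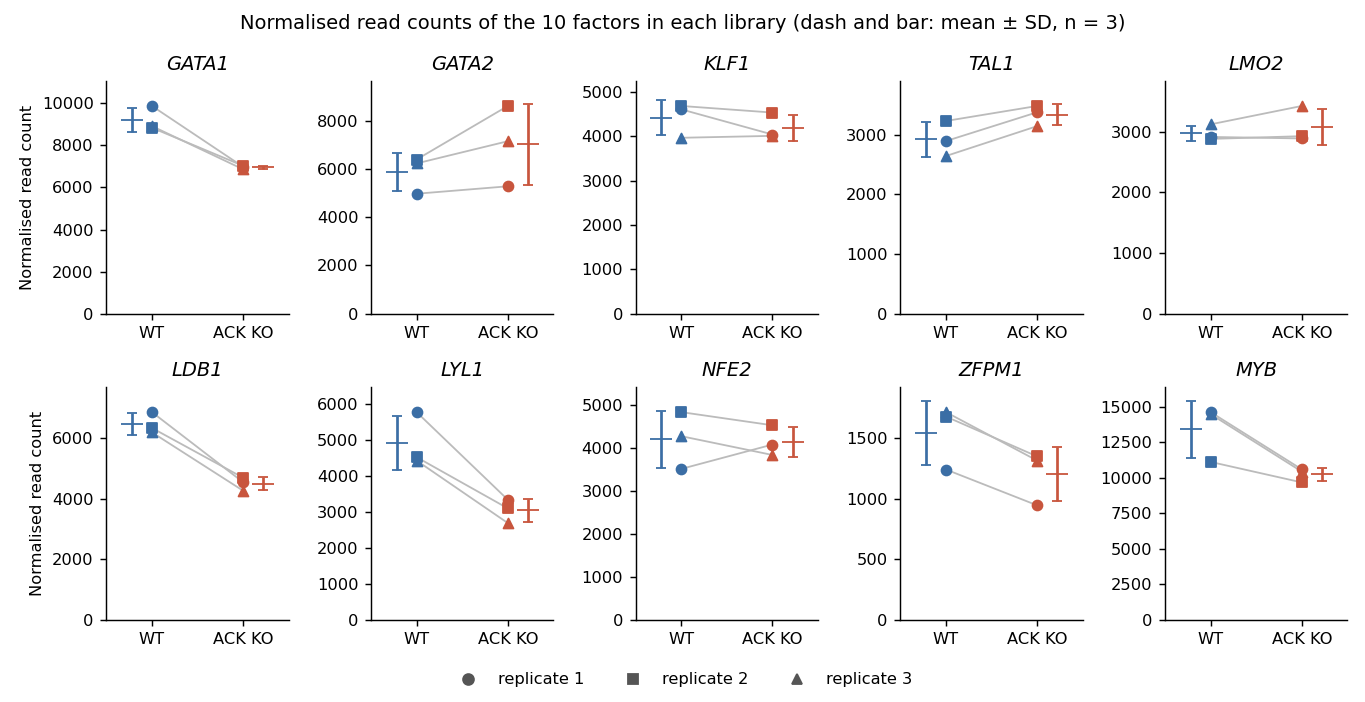
Normalised read counts (vertical axes from 0) of the 10 members in each library, with marker shapes for replicates 1 to 3, grey lines joining same-numbered libraries, and a dash and bar for the mean and SD of 3. GATA1, LDB1, LYL1 and MYB are the 4 genes whose groups do not overlap.

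**Figure D2:**
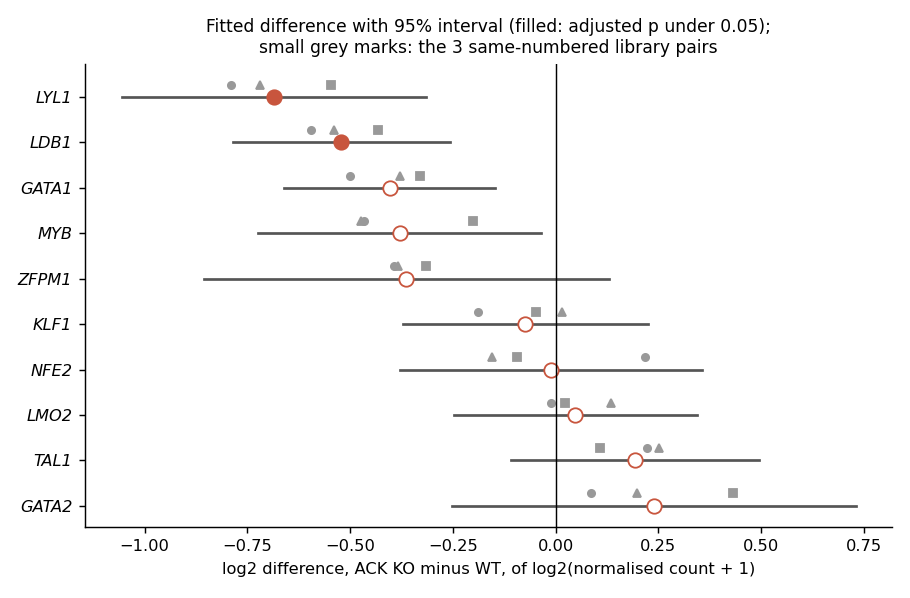
Log2 difference of each member, KO-labelled minus WT, with its 95% confidence interval from limma (filled circle where adjusted p was under 0.05) and small grey marks for the 3 same-numbered pairs. LYL1 at -0.69 and LDB1 at -0.52 are the called members, and the intervals of GATA1 and MYB also lie below 0.

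Gene positions are those of GENCODE 29 on GRCh38. GATA1, the main GATA factor of maturing red cells (ENSG00000102145.14, chrX:48786554-48794311, plus strand), had normalised counts of 9877, 8842 and 8921 in WT, against 6980.5, 7029.8 and 6863 under the KO label. Every KO-labelled value was below every WT value, with means of 9213 ± 577 and 6958 ± 85.5 (SD, n = 3 each). The difference was -0.40 (SE 0.11, 95% interval -0.66 to -0.15), a 1.32-fold lower mean level that did not pass the test without a block (limma adjusted p = 0.0637). With the block it was called (adjusted p = 0.00256), with pair differences of -0.50, -0.33 and -0.38. Without both replicate 1 libraries the adjusted p was 0.0152.

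GATA2, the GATA factor of stem and progenitor cells (ENSG00000179348.11, chr3:128479427-128493185, minus strand), had values of 4979.55, 6401 and 6238 in WT, against 5288, 8624 and 7161 under the KO label. The groups overlapped, and replicate 1 was the lowest library of each genotype at -0.34 in WT and -0.57 in KO-labelled cells on the log2 scale from the mean of replicates 2 and 3. The difference was 0.24 (SE 0.21, 95% interval -0.25 to 0.73, limma adjusted p = 0.560), and all 3 pairs were higher in the KO-labelled library, by 0.09, 0.43 and 0.20. The block brought the adjusted p to 0.0492, just inside the threshold, while without both replicate 1 libraries it was 0.065. The difference dropped to 0.08 when KO-labelled replicate 2 was left out and to 0.12 when WT replicate 1 was, and reached 0.43 when KO-labelled replicate 1 was. GATA2-AS1, an antisense RNA that overlaps GATA2, had means of 1124 in WT, against 1327 under the KO label (0.26, adjusted p = 0.594). The kit marks strand, but the sources used here do not give how strand was counted, so reads of GATA2 and of its antisense partner may not be fully separated.

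The ratio of GATA1 to GATA2 values was taken without dividing by exon length, which is 1.5 kb for GATA1 and 3.757 kb for GATA2. It was 1.98, 1.38 and 1.43 in WT, against 1.32, 0.815 and 0.958 under the KO label. All 3 KO-labelled ratios lay below the lowest WT ratio, with means of 1.60 ± 0.335 and 1.03 ± 0.26 (SD, n = 3 each). The log2 ratio differed by -0.64, with pair differences of -0.59, -0.76 and -0.58. The exact two-sided permutation test over libraries gave p = 0.1, the smallest that 3 against 3 allows, so this comparison could not reach 0.05. A ratio under 1 does not mean more GATA2 than GATA1 RNA. Per kb of exon GATA1 stood above GATA2 in every library. Under the KO label the values per kb were 4654, 4687 and 4576 for GATA1, against 1408, 2296 and 1906 for GATA2.

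ZFPM1, the GATA1 cofactor (ENSG00000179588.9, chr16:88453317-88537016, plus strand), had values of 1242, 1679.7 and 1717 in WT, against 946, 1350.2 and 1316 under the KO label. The groups overlapped, with replicate 1 low in both genotypes, and each KO-labelled library was below the WT library of its number, with pair differences of -0.39, -0.31 and -0.38. The difference of -0.36 (SE 0.21) did not pass without a block (limma adjusted p = 0.357) and passed with it (adjusted p = 0.011). It also passed without both replicate 1 libraries (adjusted p = 0.0342). Without KO-labelled replicate 1 alone the difference was -0.20.

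**Figure D3:**
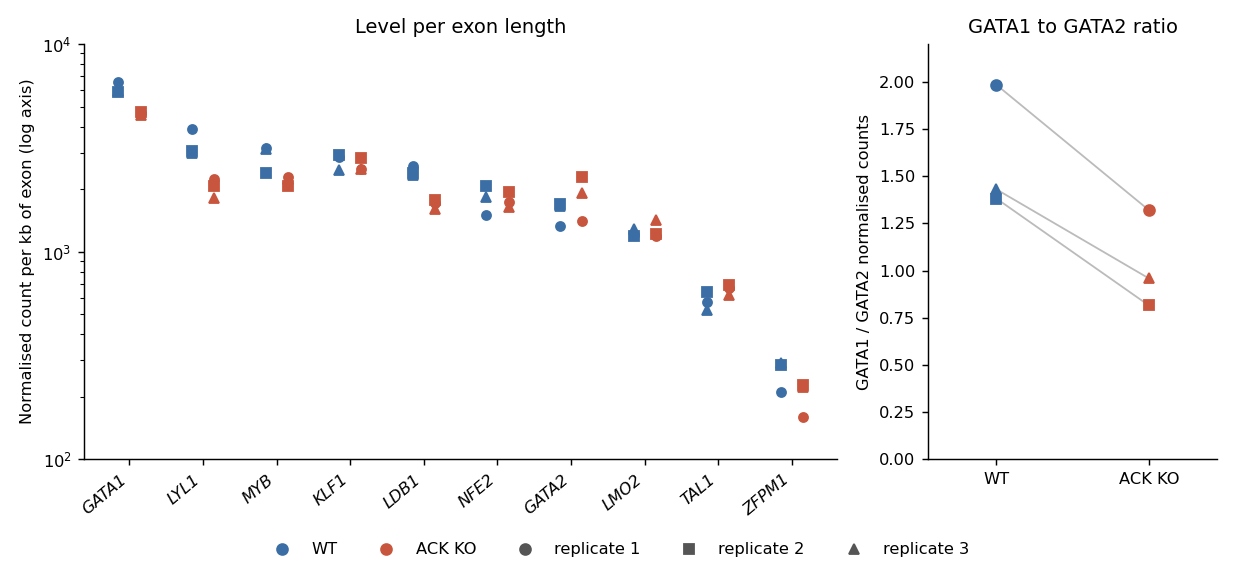
Left, normalised count per kb of exon for the 10 members (log axis, points are libraries), ordered by the WT mean from GATA1 to ZFPM1. Right, the GATA1 to GATA2 ratio of normalised counts, not per kb, in each library. All 3 KO-labelled points lie below the WT points.

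The helix-loop-helix proteins TAL1 and LYL1 are close relatives that can each pair with E proteins. LYL1 (ENSG00000104903.4, chr19:13099033-13103161, minus strand) had values of 5781, 4527 and 4433 in WT, against 3342, 3102 and 2693 under the KO label, with no overlap. Its mean fell from 4914 ± 753 to 3045 ± 328 (SD, n = 3 each), a difference of -0.69 (SE 0.16, 95% interval -1.06 to -0.31) or 1.61-fold, the largest of any member (limma adjusted p = 0.038). TAL1 (ENSG00000162367.11, chr1:47216290-47232220, minus strand) had values of 2891, 3227 and 2640.2 in WT, against 3373, 3479 and 3141 under the KO label. The groups overlapped, and the difference of 0.19 (SE 0.13, 95% interval -0.11 to 0.50) did not pass (limma adjusted p = 0.427, with the block 0.0608). The difference between the changes of LYL1 and TAL1 was not itself tested.

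LDB1, the dimerising adaptor of the complex (ENSG00000198728.10, chr10:102107560-102120453, minus strand), had values of 6856, 6333 and 6189 in WT, against 4540.3, 4689 and 4261 under the KO label. The groups did not overlap, and the mean fell from 6459 ± 351 to 4497 ± 218 (SD, n = 3 each). The difference was -0.52 (SE 0.11, 95% interval -0.79 to -0.26), or 1.44-fold (limma adjusted p = 0.0302), and the pairs gave -0.59, -0.43 and -0.54. LMO2, the LIM-only bridge between LDB1 and the DNA-binding proteins (ENSG00000135363.12, chr11:33858576-33892289, minus strand), had values of 2912, 2879.7 and 3119.6 in WT, against 2887, 2925 and 3423 under the KO label. These groups overlapped and the difference was 0.05 (SE 0.12, 95% interval -0.25 to 0.34, limma adjusted p = 0.866).

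Both calls depended on which libraries were used. Leaving out 1 library kept LDB1 and LYL1 past the threshold only where WT replicate 1 was dropped (adjusted p = 0.0445 and 0.0464). Without WT replicate 2, WT replicate 3 or KO-labelled replicate 1, 2 or 3, limma gave adjusted p of 0.101, 0.111, 0.0683, 0.0879 and 0.150 for LDB1, and of 0.0908, 0.0994, 0.0579, 0.114 and 0.159 for LYL1. Scaling every library to the same total gave 0.0916 and 0.115, and leaving out the intensity trend of the fit gave 0.0731 and 0.0733. With the block the 2 genes had adjusted p of 0.00096 and 0.000522, and without both replicate 1 libraries 0.00689 and 0.00378.

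KLF1, the erythroid CACCC-binding activator (ENSG00000105610.5, chr19:12884422-12887199, minus strand), had values of 4607, 4684 and 3967 in WT, against 4039.94, 4535 and 4010.02 under the KO label. The groups overlapped, and the difference was -0.07 (SE 0.13, 95% interval -0.37 to 0.22, limma adjusted p = 0.789), turning to 0.03 when libraries were scaled to the same total and reaching -0.15 without WT replicate 3. NFE2 (ENSG00000123405.14, chr12:54292111-54301121, minus strand) had values of 3520.05, 4845 and 4284 in WT, against 4089, 4537 and 3845 under the KO label. The 3 KO-labelled values lay inside the WT range, and the difference was -0.01 (SE 0.15, 95% interval -0.38 to 0.36, limma adjusted p = 0.975), or 0.09 with the same total.

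MYB, the progenitor factor and the most abundant member by total value (ENSG00000118513.19, chr6:135181315-135219173, plus strand), had values of 14608.5, 11106 and 14469 in WT, against 10579.7, 9663 and 10423 under the KO label. All KO-labelled values were below the lowest WT value, that of replicate 2. The difference was -0.38 (SE 0.14, 95% interval -0.72 to -0.04), which did not pass without a block (limma adjusted p = 0.170) and passed with it (adjusted p = 0.00616). Without both replicate 1 libraries it did not pass (adjusted p = 0.0982).

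Levels of different genes were compared per kb of merged exon. GATA1 stood highest at 6142 ± 384 normalised counts per kb in WT, against 4639 ± 57.0 under the KO label (SD, n = 3 each), at percentile 97.6 of tested genes. In WT it was followed by LYL1 (3298 ± 505), MYB (2881 ± 427), KLF1 (2743 ± 245) and LDB1 (2435 ± 132), and from LYL1 to LDB1 neighbours in this order overlapped in their library ranges. NFE2 (1796 ± 283) and GATA2 (1563 ± 207) came next and lay within their SDs of one another, then LMO2 (1229 ± 53.8) and TAL1 (577 ± 58.2). ZFPM1 was lowest at 261 ± 44.6 in WT, against 204 ± 37.9 under the KO label, at percentile 50.7. In KO-labelled libraries LYL1 stood at 2044 ± 220.3 per kb, MYB at 2199 ± 106, KLF1 at 2604 ± 183, LDB1 at 1695 ± 82.1 and GATA2 at 1869.7 ± 445. LYL1 was the second of the 10 in WT and the fourth in KO-labelled cells, where its range overlapped that of GATA2.

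Each member was set beside the tested genes starting within 1 Mb of it on its chromosome. For GATA1, 42 such genes had a median difference of -0.74, 78.6% of them were below 0 and 28 of the 42 were lower than GATA1 itself. That median was -0.87 within 0.5 Mb and -0.27 within 2 Mb, and it was -0.79, -0.75 and -0.62 in the 3 pairs of libraries. HDAC6, a deacetylase gene beside GATA1, differed by -0.50 (limma adjusted p = 0.448, with the block 0.00229). The part of this segment in the GATA1 values was not tested.

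The segments around the other members were nearer to 0. LDB1 had a neighbour median of 0.05 over 31 genes, of which 1 was lower than LDB1. LYL1 had a neighbour median of -0.02 over 63 genes, of which 2 were lower than LYL1. MYB had 4 neighbours with a median of -0.29, 1 of them lower than MYB, and HBS1L, the gene upstream of it, differed by -0.36 (limma adjusted p = 0.164, with the block 0.00417). For GATA2, KLF1, TAL1, LMO2, NFE2 and ZFPM1 the medians lay between -0.11 and 0.08.

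Of the 20 nearest tested genes, 1 on each side of each member, 1 passed the test. This was NFIX, a nuclear factor I gene whose annotated end lies 0.237 kb from that of LYL1, and it fell from a mean of 681 to 275 (-1.31, limma adjusted p = 0.00562). With the block 6 of the 20 passed. Of all tested genes 10.3% passed, or 39.7% with the block. Differences of the 19 that did not pass without a block ranged from -1.35 to 0.51. KLF1 and LYL1, both on chromosome 19, are among each other's neighbours, and their differences were -0.07 and -0.69.

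**Figure D4:**
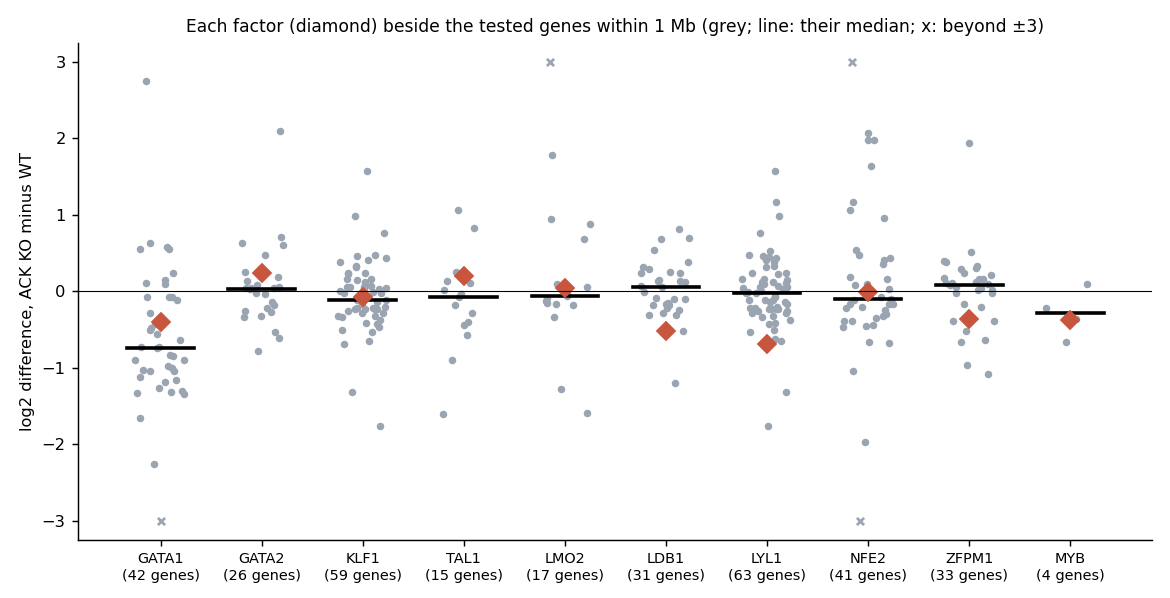
Log2 difference (KO-labelled minus WT) of tested genes within 1 Mb of each member as grey points (a cross at the edge of the scale for values beyond 3 in size), with their median as a line and the member as a diamond. The GATA1 segment has a median of -0.74, below GATA1 itself, while LYL1 and LDB1 lie below nearly all of their neighbours.

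The genes most like a member in profile were found as those with the smallest root mean square difference of centred log2 values over the 6 libraries. They were sought among the 12160 tested genes with a mean of 100 or more, less those named only by a clone or locus, which left 11501. For GATA1 these were TATDN1 (0.0296), TMEM68 (0.0332) and CLDND1 (0.04), where the median gene had 0.36. For GATA2 they were RBM23 (0.0311), ZNF195 (0.0431) and NRIP1 (0.0512). For KLF1 they were POLQ (0.033), TRIM37 (0.0371) and ATG4D (0.0373). These values are a description over 6 libraries, in which genes share the deviations of each library.

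Of 35 cofactors and partners that bind the members or share their complexes, 33 were measured and tested, of which 1 rose and 2 fell and 30 missed the threshold, with a median difference of -0.10. The block called 4 higher and 10 lower. Of all tested genes 10.3% were called, or 39.7% with the block. BCL11A, a repressor of fetal and embryonic globin genes, had values of 983, 923 and 1071.5 in WT, against 15.4, 4.01 and 6.33 under the KO label. Its mean fell from 992 ± 74.8 to 8.59 ± 6.03 (SD, n = 3 each), a difference of -6.87 on the log2 scale (limma adjusted p = 0.000303), or -6.28 with a pseudocount of 5. TCF12, an E protein that pairs with TAL1 and LYL1, fell by 0.60 (adjusted p = 0.0214), and RCOR1, a scaffold of the LSD1 corepressor, rose by 0.45 (adjusted p = 0.0482).

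The calls of TCF12 and RCOR1 depended on the libraries and settings used. TCF12 lost its call without WT replicate 2 (adjusted p = 0.0812), WT replicate 3 (0.104) or KO-labelled replicate 1 (0.0558), 2 (0.0884) or 3 (0.0638), with the same total per library (0.0636) and without the trend (0.0544). RCOR1 lost its call without any 1 of the 6 libraries (adjusted p = 0.0665 to 0.206), without the trend (0.106) and without the filter on low values (0.0575). The 33 neighbours of RCOR1 had a median of 0.31 and the 14 of TCF12 one of -0.27, so both lay in segments that differed in the same direction.

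Of the other partners, 3 lay just outside the threshold. GFI1B, a GATA1-induced repressor, had means of 1781 and 1232 (-0.53, limma adjusted p = 0.0566, with the block 0.00266). RUNX1, a partner of the complex in progenitors, had means of 4752 and 3335 (-0.52, adjusted p = 0.0667, with the block 0.00315). SSBP2, which protects LDB1 from degradation, had means of 1903 and 1192 (-0.67, adjusted p = 0.0579, with the block 0.000921), and the 692 tested genes of its chromosome, 5, had a median of -0.62. Farther from it, CBFA2T3, a corepressor bound to the TAL1 complex, had means of 7396 and 7643 (0.05, adjusted p = 0.835).

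Among 39 erythroid genes, many of them known targets of GATA1 and KLF1, 37 were tested, of which 4 rose and 2 fell and 31 missed the threshold, with a median difference of 0.10. The block called 13 higher and 7 lower, where it called 39.7% of all tested genes. Without it 10.3% of all tested genes were called. HBE1, embryonic epsilon globin, rose from 1315 ± 256 to 12385 ± 4308 (SD, n = 3 each), by 3.20 on the log2 scale or 9.19-fold (limma adjusted p = 0.000784). The other globin genes of the list did not pass, with or without the block. HBG1, HBG2 and HBZ differed by 0.12, 0.10 and 0.51, and HBA1, HBA2 and HBB by -0.16, -0.47 and -0.65. ALAS2, the erythroid enzyme that starts haem synthesis, rose from 758 ± 218 to 2144 ± 555, or 2.84-fold (adjusted p = 0.0209), and lost its call without WT replicate 3 (0.0787) or KO-labelled replicate 1 (0.0612) or 2 (0.0834).

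FECH, the last enzyme of haem synthesis, rose by 1.40 (limma adjusted p = 0.00114). It lay among genes that also differed upwards, with a median of 1.04 over its 8 neighbours. PKLR, red cell pyruvate kinase, fell by 0.92 (adjusted p = 0.0397) and lost its call without WT replicate 2 (0.103) or 3 (0.0953) or KO-labelled replicate 2 (0.134) or 3 (0.158), with the same total (0.0617) and without the trend (0.0713). CA2, carbonic anhydrase, fell from a mean of 17.5 to 2.65, a difference of -2.38 (adjusted p = 0.0144) or, with a pseudocount of 5, -1.56. It lost its call without WT replicate 2 (0.0606) or 3 (0.0603). CA2 reached the filter value only in WT libraries, so its test could show only a fall.

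Of 16 progenitor genes, 10 were measured and 8 tested, of which 1 rose and 2 fell, and the median difference was -0.15. The block called 2 higher and 3 lower. Of all tested genes 10.3% were called, or 39.7% with the block. The other 6, CD34, FLT3, PROM1, HOXA9 and HOXA10 among them, were not analysed here. KIT, the stem cell factor receptor and a known GATA2 target, fell from 1850.3 ± 790 to 257 ± 46.2 (SD, n = 3 each), a difference of -2.78 on the log2 scale (limma adjusted p = 0.00255). IKZF2, an Ikaros family factor, rose from 820.06 ± 13.9 to 1790.5 ± 161 (adjusted p = 0.00337). ANGPT1, angiopoietin 1, fell by 0.97 (adjusted p = 0.0384) and lost its call without WT replicate 2 (0.0949) or 3 (0.151) or KO-labelled replicate 1 (0.103) or 2 (0.131), with the same total (0.0547) and without the trend (0.0676). SOX4, a factor of immature cells, differed by 0.73 and did not pass without a block (adjusted p = 0.0745, with the block 0.00901). The 2 tested genes within 1 Mb of SOX4 had a median of 5.04.

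Markers of other blood lineages also differed between the groups. The counts below stand beside 10.3% of all tested genes called, or 39.7% with the block. Summed megakaryocyte markers, 8 of 14 measured, ranged from 8727 to 10119 in WT, against from 11398 to 12677 under the KO label. Of the 8, 2 were higher and 2 lower, or 3 higher and 3 lower with the block. GP1BB had the largest values of the list under the KO label, at 6486, 6201 and 7049, against 1901, 2300 and 2278 in WT. The median difference of the 8 was -0.15, so the higher sum does not stand for the list. ITGA2B, the platelet integrin alpha chain, fell from 1353 to 188 (-2.93, limma adjusted p = 0.00601), RAB27B fell by 5.24, GP1BB and CD9 rose by 1.61 and 1.69, and NBEAL2, among the most abundant of the list, differed by -0.20 without passing. Summed myeloid markers, 9 of 15 measured, ranged from 9209.5 to 17690.0 in WT, against from 4847 to 9764 under the KO label, highest in replicate 1 of each genotype, and of 8 tested 3 fell and none rose, or 5 fell and 2 rose with the block. CD33 fell by 0.83, FCGR2A by 2.33 and CD68 by 1.22 (adjusted p = 0.0161, 0.0192 and 0.0283). CD33 lost its call without WT replicate 2 (0.0737) or 3 (0.0632) or KO-labelled replicate 3 (0.0707), and FCGR2A without WT replicate 3 (0.0563) or KO-labelled replicate 2 (0.0676) or 3 (0.0826). CD68 kept its call only where WT replicate 1 was dropped (0.0476), with adjusted p of 0.072, 0.119, 0.0576, 0.0967 and 0.0893 without WT replicate 2 or 3 or KO-labelled replicate 1, 2 or 3, and lost it with the same total (0.0645). SPI1, encoding the GATA1 antagonist PU.1, differed by -1.57 (adjusted p = 0.113, with the block 0.00231). The myeloid factors CEBPA and CEBPB, named after their values were seen, differed the other way, by 1.08 (adjusted p = 0.121, with the block 0.0043) and 1.01 (adjusted p = 0.209, with the block 0.000155). The 392 tested genes of the chromosome of CEBPB, 20, had a median of 0.54.

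Lymphoid markers, 6 of 11 measured, summed to 13992 to 18969 in WT, against 421 to 548 under the KO label. The WT sums came nearly all from PTPRC, the leukocyte phosphatase CD45, and the KO-labelled sums mostly from TCF7, with values of 439, 314 and 356. PTPRC fell from a mean of 15492 to 17.9. Of 4 lymphoid markers tested PTPRC alone passed, with differences of -0.60 and -0.22 for CD3E and TCF7. The defining markers MPO, ELANE, CSF1R, PF4, GP9, PAX5 and CD2 were not analysed here, and CD14, CD79A and IL7R were at or under 13.7 in all 6 libraries. The part of these lineage markers in the values of the 10 members was not tested.

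**Figure D5:**
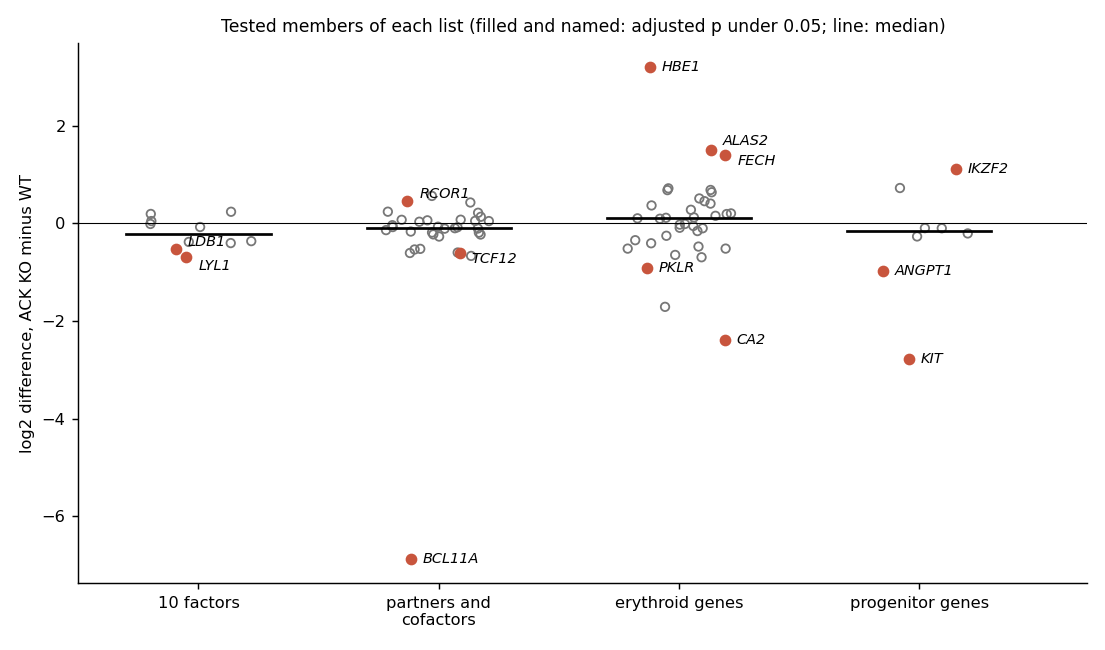
Log2 difference (KO-labelled minus WT) of each tested gene among the members, their partners, the erythroid genes and the progenitor genes, with the list median as a line and filled, named points for genes that passed the test (1 called erythroid gene is not drawn). The members lie between -0.69 and 0.24, while BCL11A at -6.87 and HBE1 at 3.20 mark the ends of the other lists.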

How the data were processed

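Per the submitters' processing notes, the authors used R 3.6.1, DESeq2 1.26.0, Salmon 1.1.0, STAR 2.7.2b, SAMtools and FastQC 0.11.7 on GRCh38, and the notes give no role or order for these. What was deposited is a signal: read counts per gene that the authors normalised between libraries, not whole reads and not log values, so read depth is unknown and precision comes from the spread between libraries. All 6 columns of values were used, and 0 were left out. Symbols matched 19392 of 19498 genes, and positions and exon lengths of 19112 came from GENCODE 29 on GRCh38.

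From these values, log2(value + 1) was tested with limma 3.58.1 in R 4.3.3 (moderated test with an intensity trend, no block), for the 16658 genes that reached 10 in 3 or more of the 6 libraries, with Benjamini-Hochberg adjustment over all of them. The lowest mean of a gene in the table was 3.38. The code was tested on simulated data. Ratios were tested by exact permutation in Python 3.11.15 with scipy 1.17.1.

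Deviations from the group means correlated by 0.699, 0.521 and 0.342 between libraries of the same replicate number, a number taken from the titles. The block by replicate number is therefore given where it changed the call of a member or the counts of a list. WT 2 with KO-labelled 3 and WT 3 with KO-labelled 2 correlated by 0.281 and 0.257, near the 0.342 of replicate 3. Unlike pairs with a replicate 1 library gave -0.594 to -0.418, so the matching of replicates 2 and 3 was less clear than that of replicate 1. Alternatives were other pseudocounts (0.5 and 5), other filters on low values, a common total per library, no trend, the block, leaving out each library or both replicate 1 libraries, and other neighbour windows.

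The members and the lists of cofactors, relatives, erythroid and progenitor genes and lineage markers were chosen with earlier results of these data known. The text names all members, up to 4 genes by smallest p from each other list, the 2 most abundant lineage markers of each kind among them, and nearest neighbours. ALAS2, PKLR, KLF5, NFE2L2, RUNX1, SSBP2, CBFA2T3, TCF3, TCF4, IKZF1, CEBPA, CEBPB and the globin genes other than HBE1 were named after their values were seen. A few genes that the rule names are not reported here.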

Additional observations from a re-analysis of the deposited data

How the results depend on the processing

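Of the 10 members, 2 passed the test in the reported fit, and 4 had an unadjusted limma p under 0.05, as did 3966 of the 16658 tested genes. With a replicate block, since libraries of the same number deviated together, 6 passed, and 6612 of all tested genes passed in place of 1721. In this balanced design the pairing cannot change a fitted difference, only its error. With the same total per library 0 members passed limma (2 at an unadjusted p under 0.05), where 1714 of all genes passed (4026 unadjusted), and without the intensity trend 0 members passed (3 unadjusted), where 1599 of all genes did (3874 unadjusted). Leaving out 1 library gave 0 to 2 members and 726 to 2183 tested genes, and leaving out both replicate 1 libraries gave 4 members and 4731 genes. The same total moved the median of all tested genes by 0.10, and with it KLF1 turned to 0.0265 and NFE2 to 0.0885. Leaving out 1 library gave -0.0307 to 0.0919 for LMO2 (the lowest when KO-labelled replicate 3 was dropped) and -0.14 to 0.0949 for NFE2, which was above 0 when WT replicate 2 (0.0949), WT replicate 3 (0.0061) or KO-labelled replicate 3 (0.04) was dropped. GATA2 ranged from 0.08 to 0.43, ZFPM1 from -0.51 to -0.20, KLF1 from -0.15 to -0.03 and TAL1 from 0.12 to 0.27. The GATA1 to GATA2 log2 ratio difference kept its sign under each alternative, from -0.83 to -0.48 without 1 library.

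Neighbour medians moved with the window. At 0.5 Mb and 2 Mb they were -0.87 and -0.27 for GATA1, -0.014 and -0.0071 for KLF1, -0.38 and -0.0148 for TAL1, -0.10 and -0.0644 for LDB1, -0.014 and 0.0025 for LYL1 and 0.0881 and 0.081 for NFE2, and at 0.5 Mb 0.10 for LMO2. Over the settings other than leaving out 1 library, 68 of 80 values of the members kept their sign and their side of the threshold. The cause of these shifts was not tested.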

Other observations

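Relatives of the members are 29 other genes of the same families. Of 25 tested, 2 rose, 4 fell and 19 did not pass limma, with a median difference of 0.08, and with the replicate block 10 were higher and 8 lower. Of all tested genes 10.3% passed, or 39.7% with the block. KLF12, a repressor of the KLF family, fell from a mean of 1180.5 ± 394 to 25.2 ± 4.91 (SD, n = 3 each), or 44.2-fold (limma adjusted p = 0.000165). LMO3, a LIM-only relative of LMO2, fell from 173 ± 22.1 to 4.02 ± 2.56, a difference of -5.23 on the log2 scale or -4.33 with a pseudocount of 5 (adjusted p = 0.00078). LMO3 reached the filter value of 10 only in WT libraries, so its test could show only a fall. LDB2, the relative of LDB1, had values of 19.7, 6.64 and 17.6 in WT and is listed at 0 in all 3 KO-labelled libraries, and was not tested.

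TAL2, a relative of TAL1 and LYL1, rose from a mean of 9.68 to 44.0 (limma adjusted p = 0.0132), and lost its call without KO-labelled replicate 3 (0.0727). GATA3, the GATA factor of T cells, rose from 25.8 to 68.0 (adjusted p = 0.0276), and lost its call without WT replicate 2 (0.082) or 3 (0.119) or KO-labelled replicate 1 (0.0786), 2 (0.106) or 3 (0.0962). NFE2L2, the broadly expressed stress factor related to NFE2, fell by 0.48 (adjusted p = 0.0346), and lost its call without WT replicate 2 (0.103) or 3 (0.141) or KO-labelled replicate 1 (0.0849), 2 (0.113) or 3 (0.141), with the same total (0.102) and without the trend (0.082). KLF5 fell by 1.17 (adjusted p = 0.0415), and lost its call without any 1 of the 6 libraries (0.0555 to 0.164) and with the same total (0.0933).

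E proteins other than TCF12 did not pass the test: TCF3 had means of 9567 and 8089 (-0.23, limma adjusted p = 0.65, with the block 0.0318), and TCF4 had means of 2685 and 3633 (0.43, adjusted p = 0.0989, with the block 0.00487). IKZF1, a zinc finger factor of blood cells, had means of 5628 and 3744 (-0.60, adjusted p = 0.0811, with the block 0.000828).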
